A study of Homo sapiens with 12 samples.

Results

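The genes examined here were 8 markers of neuroendocrine cells, CHGA, CHGB, SCG2, SCG5, SYP, NCAM1, INSM1 and UCHL1, together with the repressor gene REST. They were taken by gene symbol and not by their values, and each of the 9 symbols matched 1 of the 58302 genes in the expression table. RNA sequencing of total RNA covered 12 libraries of 3 established human prostate cell lines, with 4 libraries each of BPH-1, DU145 and PC3. BPH-1 is an epithelial line of benign prostatic origin, and DU145 and PC3 are metastatic prostate cancer (PCa) lines that served as the cancer side of the comparison. Every line was labelled wild type and was grown in Dulbecco's modified Eagle's medium with fetal bovine serum and antibiotics, with no drug or genetic treatment named in the labels. Each group was therefore 1 cell line, so a difference between groups is a difference between these lines and cannot be told apart from any other property of the line. The labels do not say whether the 4 libraries of a line came from separate cultures, so the p-values measure the spread between these libraries, which may be technical. BPH-1 was the shared reference of the PC3 and DU145 comparisons, and the values of both are therefore given side by side.

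Neuroendocrine cells are a rare epithelial cell type of the prostate that stores peptide hormones in dense core vesicles, and tumours that take on this state are known for poor dependence on androgen signalling. Chromogranins and secretogranins (CHGA, CHGB, SCG2) are acidic cargo proteins of those vesicles, SCG5 is a chaperone of a prohormone convertase, SYP is a membrane protein of small synaptic-type vesicles, NCAM1 is a cell adhesion molecule, INSM1 is a zinc finger transcription factor of neuroendocrine cells and UCHL1 is a deubiquitinating enzyme abundant in neurons. REST is a zinc finger repressor that keeps neuronal genes silent in non-neuronal cells by recruiting corepressors with histone deacetylase and demethylase activity, and many vesicle genes are known targets of it.

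Promoter sequences from RefSeq on GRCh38.p14 were matched for 5 of the 9 genes, CHGA, SCG5, SYP, UCHL1 and REST. Those of CHGB, SCG2, NCAM1 and INSM1 were not analysed here. The stretches shown are of the 4 members that cover the range of the data. They are a granin at or near the limit of detection (CHGA), a vesicle gene highest in BPH-1 (SYP), a gene that was abundant in 1 line (UCHL1) and the repressor itself (REST). The stretches are printed 5′ to 3′ on the strand of the gene, with motif matches in capitals. For REST the stretch is chr4:56907650-56907875 on the plus strand, for SYP chrX:49200260-49200443 on the minus strand, for CHGA chr14:92923080-92923109 on the plus strand and for UCHL1 chr4:41256892-41256921 on the plus strand.
REST: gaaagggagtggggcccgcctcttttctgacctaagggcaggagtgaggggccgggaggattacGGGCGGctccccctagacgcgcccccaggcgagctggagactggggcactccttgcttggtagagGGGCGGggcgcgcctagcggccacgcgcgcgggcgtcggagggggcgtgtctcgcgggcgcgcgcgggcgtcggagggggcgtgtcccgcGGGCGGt
SYP: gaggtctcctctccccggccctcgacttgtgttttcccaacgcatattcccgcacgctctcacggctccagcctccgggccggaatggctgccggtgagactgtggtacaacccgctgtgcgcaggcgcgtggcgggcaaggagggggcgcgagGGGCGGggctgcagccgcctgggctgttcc
CHGA: aaggGGGCGGcaccgcTGACGTCAtttccg
UCHL1: ccggcgcTTTATAgctgcagcctGGGCGGc
In the CHGA stretch the capitals mark a GC box (GGGCGG) and, beside it, the full cAMP response element TGACGTCA, whose short core TGACG therefore lies on both strands. The full element was present in 1.85% of 35116 promoter windows of the same length, which run from 250 bases before to 50 bases after the annotated start. In SYP and REST the capitals mark GC boxes, a motif held on either strand by 45.0% of the windows. In UCHL1 they mark a GC box and the letters TTTATA, which are the TATA box TATAAA read on the opposite strand and occurred on either strand in 11.5% of the windows. SCG5 held a GC box and the core TGACG alone, which 24.6% of the windows held. The left part of the REST element (TTCAGCACC) and its right part were searched on both strands, occurred in 0.376% and 0.846% of all windows and had no match in the windows of these 5 genes. These matches describe letters in short windows and not bound sites.

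The libraries held 12950929 to 16310077 reads, as recovered from the steps between low values in the table. Values are FPKM, in which read numbers are corrected for library size and for a gene length that sums the distinct exons of all transcripts. That length exceeds the merged exons by a factor that differs between genes, so levels of different genes are only roughly comparable. A library in which a gene had no read still allows up to 3 reads, and such limits cover counting error only. Before the results, 2 properties of the libraries have to be given. First, the libraries differed in their balance of genes with low and high GC content, measured as the median FPKM of 2624 low-GC genes over that of 2624 high-GC genes. It was 1.51 to 1.88 in BPH-1, 0.120 to 0.791 in DU145 and 0.187 to 0.586 in PC3, so BPH-1 stood apart from both PCa lines and DU145 replicates 1 and 3 and PC3 replicates 3 and 4 were the lowest. Second, the summed level of 5 leukocyte markers was 9.58 to 12.5 FPKM in BPH-1, and 9.53 and 10.3 in DU145 replicates 1 and 2, against 0 and 0.0387 in DU145 replicates 3 and 4 and at most 0.230 in PC3. LYZ, PTPRC and CD14 carried that level, while the T cell gene CD3E was at 0 in every library. The keratins KRT5 and KRT14 of basal epithelium, which reached 120 FPKM or more in each BPH-1 library, were under 0.5 FPKM in every DU145 and PC3 library. Of 8 epithelial markers 8, 8 and 7 had over 3 reads in at least 1 library of BPH-1, DU145 and PC3. KRT5, KRT14 and TP63 had 0 reads in DU145 replicate 4. In each PCa line 1 marker was called higher and 5 lower than in BPH-1. Over all tested genes 27.2% were higher and 40.5% lower in PC3, and 30.3% and 32.3% in DU145. EPCAM had means of 60.8, 0.376 and 9.10 FPKM in BPH-1, DU145 and PC3, and CDH1, the gene of E-cadherin, had 28.4, 0.180 and 0.786 FPKM. The names of the lines are those of the labels, and the identity of the cells was not tested. KLK3, which encodes prostate-specific antigen, had no read in any library. The summed level of 5 neuronal or glial markers was 0.107 to 0.375 FPKM in BPH-1, 1.39 to 2.82 in DU145 and at most 0.0430 in PC3. SNAP25 and MAP2 carried it and were both called higher in DU145 than in BPH-1, while RBFOX3 had at most 2 reads in a library.

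Most of the neuroendocrine markers were rare or absent in all 3 lines, and the clear exception was UCHL1 in DU145. INSM1 had no read in any of the 12 libraries and CHGA had no more than 5 in any. CHGB, SCG5 and SYP were highest in BPH-1, the benign line, and CHGB was found only there. REST was also highest in BPH-1 and was detected in every library. With UCHL1 in DU145 set aside, no marker reached a mean of 1 FPKM in any line as deposited, while on the length of merged exons the BPH-1 means of SYP and UCHL1 were 1.15 and 1.33. On both lengths REST was the most abundant member in BPH-1 and PC3.

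**Figure D1:**
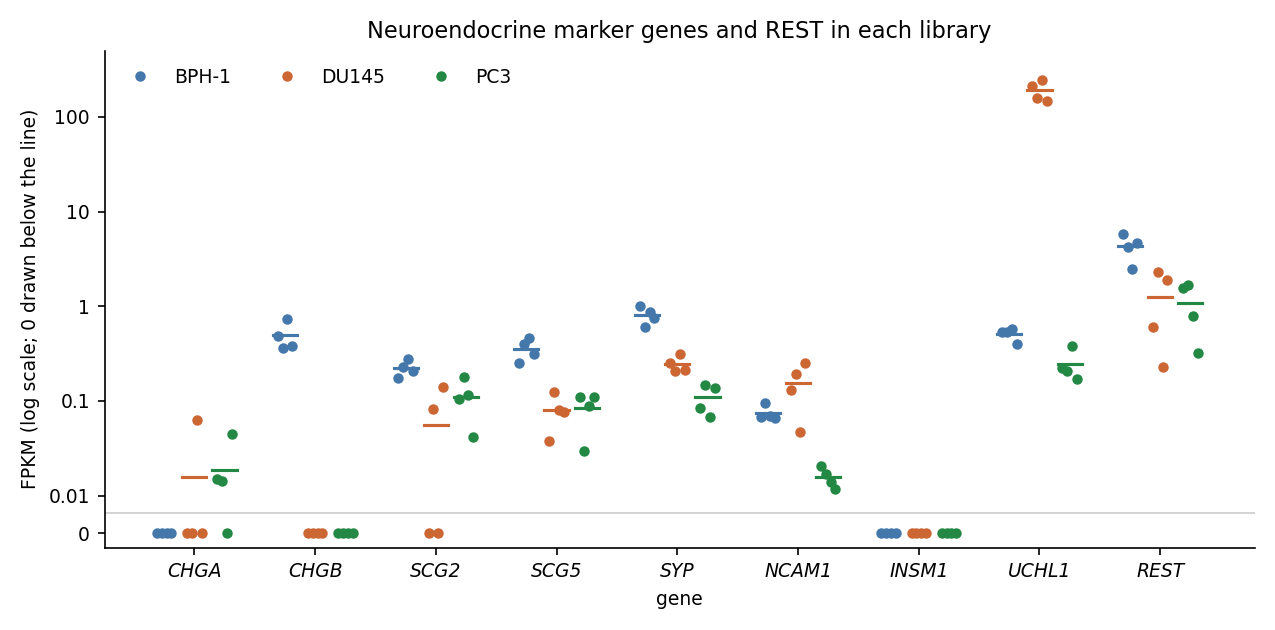
FPKM (log scale) of the 9 genes in each library of BPH-1, DU145 and PC3, with a bar at the mean of the 4 libraries of a line and values of 0 drawn under the grey line. UCHL1 in DU145 sits between 147 and 245 FPKM, and every other marker value is under 1 FPKM.

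CHGA, the chromogranin most used as a neuroendocrine serum and tissue marker (GRCh38 chr14:92923080-92935293, plus strand), was at or near the limit of detection. All 4 BPH-1 libraries had 0 reads. In DU145 only replicate 3 had reads, 5 in number and 0.0629 FPKM, and in PC3 the 4 libraries had 1, 1, 0 and 3 reads. A total of 3 reads corresponds to 0.0357 to 0.0450 FPKM in these libraries, so 1 of the 12 libraries was above that limit. CHGA entered no test. A difference between the lines was not detectable at this depth.

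CHGB, the second chromogranin (GRCh38 chr20:5911430-5925361, plus strand), was a BPH-1 transcript. The 4 BPH-1 libraries had 0.489, 0.365, 0.729 and 0.380 FPKM from 42, 31, 63 and 33 reads, and all 8 DU145 and PC3 libraries had 0 reads. No PCa library overlapped the BPH-1 range. The BPH-1 mean was 0.491 ± 0.168 FPKM (SD, n = 4), which was at least 12.2-fold higher than PC3 and at least 13.9-fold higher than DU145 when the PCa libraries were set at the limit of 3 reads per library. The log2 fold change on the log2(FPKM + 1) scale was -0.57 (SE 0.07) in PC3, with a limma adjusted p of 8.95e-05, and -0.57 (SE 0.07) in DU145 with an adjusted p of 0.000104. DU145 replicates 1 and 2, with leukocyte markers at the BPH-1 level, had no CHGB read either. CHGB passed the filter on low reads through its BPH-1 libraries alone, so a call could only be lower. The limma p-values therefore lend no weight to the difference. The log2(FPKM + 1) scale understates the changes of such low genes.

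SCG2, the secretogranin that is the precursor of the neuropeptide secretoneurin (GRCh38 chr2:223596940-223602503, minus strand), was low in every line. BPH-1 had 0.175, 0.230, 0.278 and 0.207 FPKM from 10 to 16 reads, DU145 had 0, 0.0826, 0 and 0.141 FPKM and PC3 had 0.104, 0.177, 0.117 and 0.0416 FPKM. DU145 lay below BPH-1 in every library, whereas the highest PC3 library lay just above the lowest BPH-1 library. The DU145 difference was -0.21 (SE 0.05) on the log2 scale (limma adjusted p = 0.00665). It was -0.14 with an adjusted p of 0.0602 without the low-GC libraries (DU145 replicates 1 and 3, the ones without an SCG2 read), and the values of the 2 lines overlapped after the GC trend was divided out. In PC3 SCG2 did not pass the filter on low reads. With no filter its change was -0.14 with a limma adjusted p of 0.0419, and without the low-GC libraries it was -0.10 with an adjusted p of 0.147.

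SCG5, the convertase chaperone (GRCh38 chr15:32641676-32697098, plus strand), was also highest in BPH-1. Its BPH-1 levels were 0.251, 0.401, 0.460 and 0.314 FPKM, from 19 to 35 reads. The DU145 levels were 0.0378, 0.125, 0.0793 and 0.0760 FPKM, and those of PC3 were 0.110, 0.0298, 0.0882 and 0.110 FPKM, from 2 to 10 reads. Both PCa lines lay below BPH-1 without overlap and overlapped each other. The means were 0.356 ± 0.0923, 0.0795 ± 0.0357 and 0.0846 ± 0.0380 FPKM (SD, n = 4) in BPH-1, DU145 and PC3. The change was -0.32 (SE 0.06) in PC3 and -0.33 (SE 0.06) in DU145, with limma adjusted p of 0.000706 and 0.000805. With the GC trend divided out it was -0.30 and -0.31, and without the DU145 libraries that carried leukocyte RNA it was -0.33 with an adjusted p of 0.00836.

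SYP, the synaptic vesicle protein gene (GRCh38 chrX:49187804-49200259, minus strand), formed the most regular gradient of the set. BPH-1 had 0.997, 0.610, 0.877 and 0.752 FPKM from 69 to 114 reads, DU145 had 0.25, 0.207, 0.315 and 0.211 FPKM from 21 to 36 reads, and PC3 had 0.0833, 0.148, 0.0681 and 0.135 FPKM from 7 to 15 reads. The 3 lines were in the order BPH-1, DU145, PC3 with no overlap between any 2 of them. BPH-1 was 7.45-fold higher than PC3 (-0.70, SE 0.07, limma adjusted p = 2.38e-05) and 3.29-fold higher than DU145 (-0.53, SE 0.08, limma adjusted p = 0.00029). SYP is a gene of high GC content (57.7% of its exonic bases), and dividing out the GC trend made the BPH-1 excess larger, 11.9-fold over PC3 and 5.85-fold over DU145. DU145 was 2.26-fold higher than PC3 (-0.17, SE 0.05, adjusted p = 0.017 by limma). This smaller step did not pass in 5 of the alternatives, among them the fit without the low-GC libraries (adjusted p = 0.0975). SYP-AS1, which overlaps SYP on the other strand, had a mean of 0.0594 FPKM in BPH-1 and 0 in both PCa lines. The use of strand in the counting is not given in the sources used here, so reads of the 2 genes cannot be told apart.

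NCAM1, the adhesion molecule (GRCh38 chr11:112961247-113278436, plus strand), was the only marker besides UCHL1 with its highest mean in DU145. The BPH-1 libraries had 0.0668, 0.0950, 0.0688 and 0.0660 FPKM, the DU145 libraries 0.130, 0.194, 0.0470 and 0.25 FPKM and the PC3 libraries 0.0206, 0.0167, 0.0138 and 0.0118 FPKM. PC3 was below every library of the other lines, and DU145 spanned the BPH-1 range because its replicate 3 was the lowest of the 8. That library had 19 reads against 55 to 88 in the other DU145 libraries and was also the library with the lowest GC balance. BPH-1 was 4.72-fold higher than PC3 (-0.081, SE 0.028, limma adjusted p = 0.0276), a call that was lost in 7 of the alternatives. DU145 was 9.88-fold higher than PC3 (-0.18, SE 0.05, limma adjusted p = 0.0212), with an adjusted p of 0.0989 without DU145 replicates 1 and 2. DU145 and BPH-1 did not differ beyond the spread (0.10, SE 0.06, limma adjusted p = 0.133). Without DU145 replicate 3 the same change was 0.15 with an adjusted p of 0.0246, and without both low-GC DU145 libraries it was 0.19 with 0.00744. With the GC trend divided out it was instead 0.042 (limma adjusted p = 0.464), and DU145 and BPH-1 still overlapped. The part of GC balance in this result was not tested.

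INSM1, the transcription factor (GRCh38 chr20:20368121-20370949, plus strand), was undetected. All 12 libraries had 0 reads, which allows up to 0.0650 to 0.0819 FPKM. Lower levels were not detectable at this depth. Its absence separated none of the lines, and DU145, the line with abundant UCHL1, had no INSM1 read in any of its 4 libraries.

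UCHL1 (GRCh38 chr4:41256413-41268455, plus strand) was the member with by far the widest range. The DU145 libraries had 214, 159, 245 and 147 FPKM from 20624, 15459, 22491 and 11752 reads, the BPH-1 libraries 0.534, 0.529, 0.574 and 0.399 FPKM from 37 to 53 reads, and the PC3 libraries 0.221, 0.209, 0.376 and 0.169 FPKM from 13 to 31 reads. No library of 1 line overlapped those of another. The means were 191 ± 46.1, 0.509 ± 0.0763 and 0.243 ± 0.0910 FPKM (SD, n = 4) in DU145, BPH-1 and PC3. In DU145 UCHL1 ranked 73 among 19817 protein-coding genes by mean FPKM, against 11608 in BPH-1 and 11753 in PC3.

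DU145 was 376-fold higher than BPH-1 (6.97 on the log2 scale, SE 0.19, limma adjusted p = 2.29e-08) and 786-fold higher than PC3 (a PC3 change of -7.25, SE 0.18, limma adjusted p = 2.92e-08). BPH-1 was 2.09-fold higher than PC3 (-0.28, SE 0.07, limma adjusted p = 0.00384). This last call was lost when all 3 lines shared 1 estimate of spread (adjusted p = 0.151). Within DU145 the 2 libraries with the highest UCHL1, replicates 3 and 1, had the lowest GC balance (0.120 and 0.203). After the GC trend was divided out the DU145 libraries had 109, 126, 104 and 110 FPKM, a mean of 112 ± 9.35 (SD, n = 4), and the excess over BPH-1 was 218-fold. Without DU145 replicates 1 and 2, which carried leukocyte markers, the change was 6.99 with an adjusted p of 1.47e-05. The neuronal or glial markers were also highest in DU145, with MAP2 at means of 0.221, 0.674 and 0.0166 FPKM in BPH-1, DU145 and PC3, and their part in the UCHL1 result was not tested. UCHL1-AS1 overlaps UCHL1 by 315 bases on the other strand and had a mean of 0.151 FPKM in DU145 and 0 in the other lines. The gene length used for the deposited values counts each distinct exon, 5946 bases for UCHL1, and with overlapping exons merged to 2282 bases the DU145 mean would be 499 FPKM. This changes its level beside other genes and not the comparison between lines.

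Of the protein-coding genes within 500 kb of UCHL1 on chromosome 4, 3 are described here, a choice made after the data were seen. LIMCH1, an actin-binding gene that starts 103 kb further along, had means of 0.616 FPKM in BPH-1, 15.2 in DU145 and 0.139 in PC3, and its DU145 change was 3.18 (limma adjusted p = 2.80e-05). NSUN7 had 0.125, 1.79 and 0.147 FPKM, with a DU145 change of 1.31 (limma adjusted p = 2.93e-06). APBB2 had 1.41, 3.07 and 0.911 FPKM and its DU145 change of 0.61 did not pass (limma adjusted p = 0.121). Of these 3 genes, 2 were called higher in DU145, at smaller fold changes than UCHL1, where 30.3% of all 17072 tested genes were called higher. Whether the neighbours and UCHL1 share a cause was not tested.

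**Figure D2:**
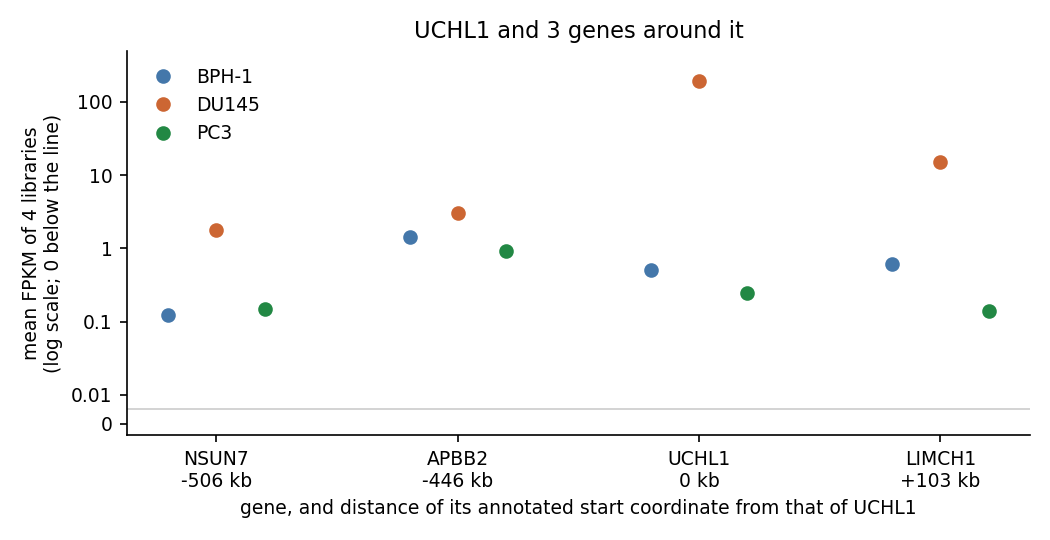
Mean FPKM of 4 libraries (log scale, 0 under the grey line) of UCHL1 and 3 protein-coding genes within 500 kb of it, in order along the chromosome. DU145 is the highest line for all 4 genes shown, with UCHL1 at 191 FPKM and LIMCH1 at 15.2 FPKM.

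Over the 12 libraries, the 3 genes whose log2(FPKM + 1) was most like that of UCHL1 were XAGE1A (Pearson r 0.9995), CT83 (0.9989) and MT1A (0.9987). XAGE1A had 0.167, 58.3 and 0.0639 FPKM in BPH-1, DU145 and PC3. CT83 had 15.3 FPKM in DU145 and no read in the other lines, and MT1A had 15.5 FPKM in DU145, 0.0407 in BPH-1 and 0 in PC3. XAGE1A has a near-identical copy, so its level is uncertain. These correlations describe genes that were high in the 4 DU145 libraries, which share a line and its library properties.

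REST, the repressor (GRCh38 chr4:56907876-56966678, plus strand), was highest in BPH-1. The 4 BPH-1 libraries had 5.73, 4.25, 2.50 and 4.67 FPKM from 632 to 1440 reads, DU145 had 0.602, 2.28, 0.231 and 1.88 FPKM from 58 to 607 reads and PC3 had 1.56, 1.67, 0.787 and 0.317 FPKM from 67 to 373 reads. Both PCa lines lay below the lowest BPH-1 library and overlapped each other fully. The means were 4.29 ± 1.35, 1.25 ± 0.986 and 1.08 ± 0.645 FPKM (SD, n = 4). REST was 3.96-fold lower in PC3 (-1.36, SE 0.27, limma adjusted p = 0.00142) and 3.44-fold lower in DU145 (-1.31, SE 0.33, limma adjusted p = 0.00628). PC3 and DU145 did not differ beyond their spread (-0.05, SE 0.35, limma adjusted p = 0.917).

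The REST level moved with GC balance inside the PCa lines. Its exonic GC content is 44.3%, and its highest library was 9.90 times its lowest in DU145 and 5.26 times in PC3, against 2.29 times in BPH-1. In DU145 the order of the libraries by REST was their order by GC balance, from replicate 2 (balance 0.791, 2.28 FPKM) to replicate 3 (0.120, 0.231 FPKM), and in PC3 the order was the same but for replicates 1 and 2, which were close in both. In BPH-1 the library with the highest balance, replicate 3 (1.88), had the lowest REST. With the GC trend divided out, REST was 3.27-fold lower in PC3 (-1.14, SE 0.25, limma adjusted p = 0.00277) and 2.85-fold lower in DU145 (-1.06, SE 0.28, limma adjusted p = 0.00961). The highest corrected DU145 library (2.07) then reached the lowest BPH-1 library (2.06). Without the low-GC libraries the changes were -0.98 (adjusted p = 0.0141) and -0.74 (adjusted p = 0.041). Both calls thus remained at smaller sizes, and how much of the remaining difference goes with GC balance was not tested. The 2 DU145 libraries with leukocyte markers had 0.602 and 2.28 FPKM, and without them the DU145 change was -1.45 (limma adjusted p = 0.0156).

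**Figure D3:**
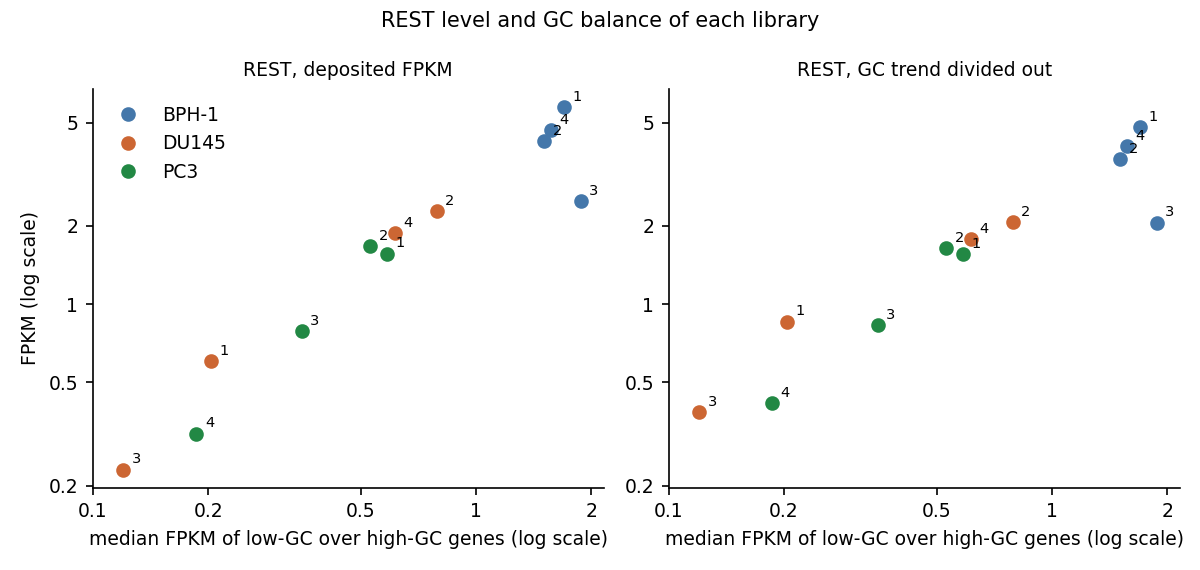
REST level (FPKM, log scale) against the GC balance of each library (median FPKM of low-GC over high-GC genes, log scale), as deposited on the left and with the GC trend divided out on the right, with replicate numbers beside the points. The BPH-1 libraries sit at a balance of 1.51 or more, all PCa libraries sit under 0.8, and REST falls with the balance among the PCa libraries in both panels.

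NOA1 overlaps the 3′ part of the REST locus by 3309 bases on the other strand and was more abundant than REST, with means of 9.03, 7.33 and 17.8 FPKM in BPH-1, DU145 and PC3. It was higher in PC3 than in BPH-1 (0.90, limma adjusted p = 6.29e-05), opposite in direction to REST. Since the use of strand in the counting is not given, reads of the 2 genes in the shared stretch cannot be told apart. Their part in the REST levels was not tested. Around REST, IGFBP7, which encodes a secreted binding protein, had 12.4 FPKM in BPH-1, 0.262 in DU145 and 0 in PC3. PPAT and IGFBP7 were called lower in both PCa lines, SRP72 and ARL9 in DU145 alone, and PAICS and POLR2B in neither. The genes most like REST over the 12 libraries were EXOC6 (Pearson r 0.979), AL592293.2 (0.977) and VPS36 (0.974). Their GC content was 37.2%, 41.2% and 39.8%, so they share low GC content as well as the order of the lines. Around CHGB on chromosome 20, limma called GPCPD1, TRMT6, MCM8 and LRRN4 lower in both PCa lines, FERMT1 in DU145 alone, and SHLD1 and CRLS1 in neither. The changes of TRMT6 and MCM8 were -1.13 and -1.12 in PC3 and -1.39 and -1.68 in DU145. Over all tested genes 40.5% were called lower in PC3 and 32.3% in DU145. Whether neighbouring genes share a cause was not tested.

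The counts of members were read against those of all genes. In PC3 against BPH-1, 6 of the 9 members passed the filter on low reads and 6 of these were called lower, where 67.6% of 16346 tested genes were called in either direction, 27.2% higher and 40.5% lower. The median log2 fold change of those 6 was -0.45, and that of all tested genes was -0.13. In DU145 against BPH-1, 7 members were tested, 1 (UCHL1) was called higher, 5 were called lower and 1 (NCAM1) was not called, where 62.6% of 17072 genes were called, 30.3% higher and 32.3% lower. The median was -0.33, beside -0.03 over all genes. In PC3 against DU145, 4 members were tested and 3 were lower in PC3, SYP, NCAM1 and UCHL1, where 48.2% of 16209 genes were called and 28.3% were lower. The members' median was -0.18 and that of all genes -0.05. Low genes such as CHGB, SCG2 and SCG5 pass the filter through the line in which they are high, so these counts describe the members and lend no weight to them. Libraries of PC3 and BPH-1 did not overlap for 6 of the 6 tested members, against 64.5% of all tested genes, and DU145 and BPH-1 did not overlap for 6 of 7, against 59.4%, and PC3 and DU145 for 3 of 4, against 46.5%. The smallest p that an exact two-sided permutation of 4 against 4 libraries can give is 0.0286. Libraries that do not overlap always give this p, so it adds nothing to these counts. After the GC trend was divided out 6, 6 and 3 members were called in the 3 comparisons, where 66.0%, 62.0% and 56.0% of all genes were.

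**Figure D4:**
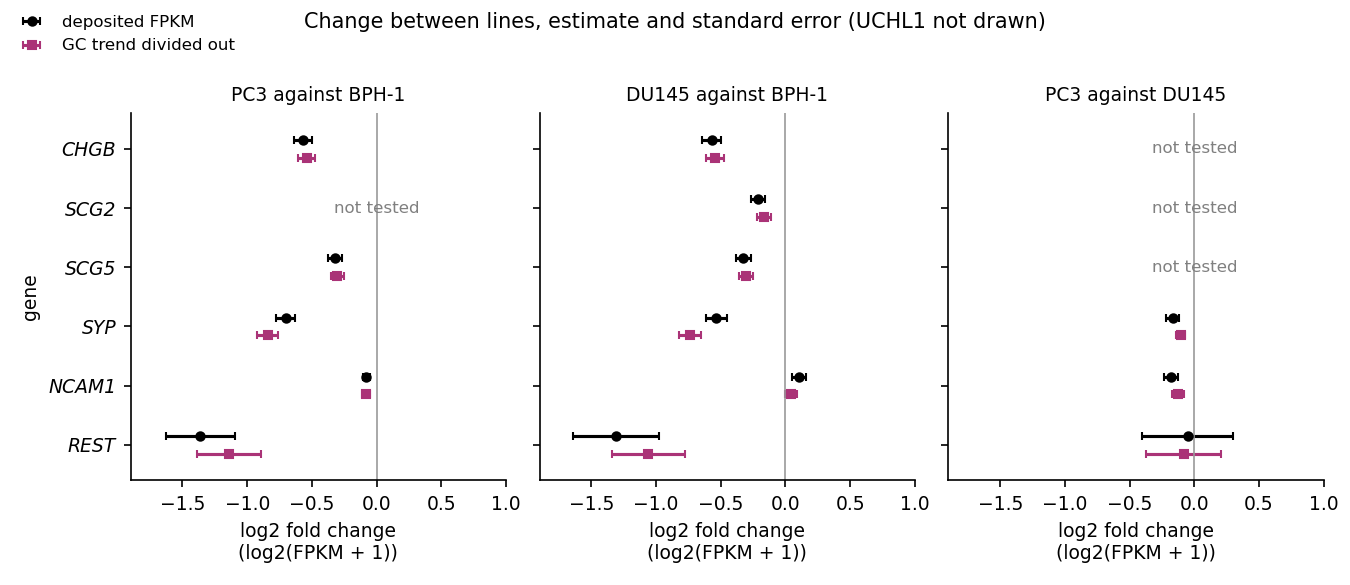
Log2 fold change on log2(FPKM + 1) of the members with a detectable level, with bars of 1 standard error, from the deposited FPKM (black circles) and with the GC trend divided out (purple squares), with UCHL1 left off because its change of 6.97 in DU145 exceeds the axis. CHGB, SCG5, SYP and REST lie left of 0 in both comparisons with BPH-1, and NCAM1 lies left of 0 in PC3 only.

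Genes of the same vesicle machinery were next examined, from a list of 28 other granin and dense core vesicle genes. This list went the other way in PC3. Of the 19 tested, 12 were higher and 4 lower in PC3 than in BPH-1, where 27.2% of all tested genes were higher and 40.5% lower. The median was 0.59 beside -0.13 over all genes. After the GC trend was divided out 12 were higher and 6 lower, where 3702 and 7079 of all 16333 tested genes were. STX1A, a syntaxin of the vesicle fusion complex, had means of 1.33 ± 0.331, 6.94 ± 1.81 and 12.2 ± 1.39 FPKM (SD, n = 4) in BPH-1, DU145 and PC3, with a PC3 change of 2.50. RAB3D and RAB3A, GTPases of secretory vesicles, rose by 2.29 and 2.14 in PC3. SV2A, a vesicle membrane glycoprotein gene, was at 3.45, 4.80 and 0.0107 FPKM, a PC3 change of -2.13. The PC3 and DU145 changes named in this and the next paragraphs each passed a limma adjusted p under 0.05 in the deposited values without overlap between lines, unless a p is given beside them.

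In DU145 against BPH-1 the same list was split, with 7 higher, 7 lower and 7 not called of 21 tested. Among all tested genes 30.3% were higher and 32.3% lower. STX1A and VAMP2, both of the fusion machinery, were higher by 1.75 and 1.47, and by 1.12 and 0.78 with the GC trend divided out. PCSK1N, which encodes an inhibitor of a prohormone convertase, was at 5.46, 0.110 and 13.5 FPKM in BPH-1, DU145 and PC3, a DU145 change of -2.53. SYT7, a calcium sensor of vesicle release, fell by 1.51 in DU145. SYPL1, a relative of SYP, was -0.85 in DU145 as deposited and 0.43 with the GC trend divided out, so its direction depends on that correction, and it was not called without the low-GC libraries (-0.35, limma adjusted p = 0.0708). SCG3, PCSK2, PTPRN, CADPS, SLC18A1 and SYT4 had at most 3 reads in any library.

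Of 19 other neuroendocrine marker and neuropeptide genes, 2 were higher and 3 lower of 7 tested in PC3, and 4 were higher and 3 lower of 9 tested in DU145. The shares over all tested genes were 27.2% higher and 40.5% lower in PC3, and 30.3% and 32.3% in DU145. ENO2, neuron-specific enolase, rose in PC3 by 1.13, from 2.47 to 6.63 FPKM, and by 0.64 with the GC trend divided out. GAL, the galanin precursor, had 20.4, 36.8 and 6.20 FPKM in BPH-1, DU145 and PC3, a PC3 change of -1.55, or -2.42 with the GC trend divided out. SSTR2, a somatostatin receptor, and CALCB, a calcitonin gene-related peptide gene, were low and higher in DU145 (0.33 and 0.40). DLL3, a Notch ligand, was higher by 0.45 in PC3 and 0.44 in DU145, and these changes were 0.02 and 0.04 once the GC trend was divided out. The DU145 counts were 2 higher and 4 lower with the GC trend divided out, where 4259 and 6315 of all 17058 tested genes were. GRP, CALCA, SST, TAC1, NPY and CRH had at most 3 reads in any library.

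Among 24 neuroendocrine transcription factors and regulators, several factors of neuroendocrine cells were not detected. NEUROD1 and NEUROG3 had 0 reads in every library, and INSM2, POU3F4, SOX11 and ST18 had at most 3. Of 12 tested in PC3, 3 were higher and 6 lower, and of 14 tested in DU145, 6 were higher and 6 lower. Over all tested genes these shares were 27.2% higher and 40.5% lower in PC3, and 30.3% and 32.3% in DU145. FOXA2, a forkhead factor, had 0.467 FPKM in BPH-1, 1.04 in DU145 and 13.5 in PC3, a PC3 change of 3.24 (SE 0.26). NKX2-1, a homeobox factor of lung and thyroid, had 0.414, 7.28 and 0.0111 FPKM, a DU145 change of 2.49 (SE 0.27). NKX2-2 and LHX2, both homeobox factors, rose in DU145 by 1.43 and 1.55, and by 1.05 and 1.02 with the GC trend divided out. SOX2, a stem cell factor, had 5.99 ± 4.47 FPKM (SD, n = 4) in BPH-1 and under 0.05 in each library of the PCa lines, with changes of -2.60 in PC3 and -2.58 in DU145.

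The corepressors and regulators through which REST acts were largely expressed in all lines. Of 24, 23 were tested, with 9 higher and 9 lower in PC3 and 2 higher and 8 lower in DU145. All tested genes gave 27.2% higher and 40.5% lower in PC3, and 30.3% and 32.3% in DU145. RCOR1, the corepressor that bridges REST to the demethylase KDM1A, had 14.2, 10.6 and 21.3 FPKM in BPH-1, DU145 and PC3. SMARCA4, the ATPase of a chromatin remodelling complex, had 21.3, 3.04 and 43.7 FPKM, with changes of 1.0 in PC3 and -2.48 in DU145, and 0.30 (limma adjusted p = 0.0421) and -3.14 with the GC trend divided out. USP15, a deubiquitinase that stabilises REST, had 4.33, 0.303 and 0.344 FPKM, with changes of -1.99 and -2.04, and -1.30 and -1.33 with the GC trend divided out. BTRC, the ligase subunit that targets REST for degradation, changed by -1.07 and -1.45. HDAC2 was -1.40 in PC3 as deposited and -0.21 (limma adjusted p = 0.12) with the GC trend divided out. With that correction the list had 4 higher and 12 lower in PC3, where 3702 and 7079 of all 16333 tested genes were. Its balance also turned with the scaling of the libraries, from 6 higher and 12 lower with the same sum per library to 11 higher and 6 lower with upper-quartile scaling (medians of -0.25 and 0.25), so no direction is given for it. SRRM4, the neural splicing factor that switches REST to an inactive isoform, had at most 1 read in a library. Its paralogue SRRM3 had 0.144, 0.737 and 0.0384 FPKM and was 1 of the 2 genes of this list called higher in DU145 (0.59, limma adjusted p = 0.00113, and 0.36 with the GC trend divided out).

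Genes described as REST targets did not move together. Of 31 such genes, 17 were tested in PC3 with 3 higher and 9 lower (median -0.11), and 18 in DU145 with 8 higher and 7 lower (median 0.06). Medians over all genes were -0.13 and -0.03. Shares over all genes were 27.2% higher and 40.5% lower in PC3, and 30.3% and 32.3% in DU145. SNAP25, of the vesicle fusion complex, had 0.00877 FPKM in BPH-1, 1.40 in DU145 and 0.00491 in PC3, a DU145 change of 1.24 (SE 0.11). BDNF, a neurotrophin, had 0.615, 5.0 and 0.285 FPKM, a DU145 change of 1.87. MAPK8IP2, a scaffold protein gene, was higher in both PCa lines (0.50 and 1.19, and 0.31 and 0.92 with the GC trend divided out). L1CAM, a neural adhesion gene, had 11.2, 2.17 and 3.32 FPKM and was lower in both (-1.50 in PC3 and -1.92 in DU145). STMN3, a stathmin of neurons, changed by -1.97 in DU145 and by 0.65 in PC3, and the PC3 change was -0.08 with the GC trend divided out. Several of these genes stand in more than 1 list, SNAP25, L1CAM, VGF and TUBB3 among them.

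Of 10 relatives of UCHL1 and NCAM1, none was higher in DU145 among 7 tested, and 5 were lower. For all tested genes the shares there were 30.3% higher and 32.3% lower. UCHL5 and UCHL3, of the same ubiquitin hydrolase family as UCHL1, had 9.34, 2.42 and 1.28 FPKM and 8.42, 5.02 and 3.32 FPKM in BPH-1, DU145 and PC3. UCHL3 changed by -0.66 in DU145 as deposited (limma adjusted p = 0.0385) and by 0.94 (adjusted p = 0.003) with the GC trend divided out, so its direction depends on that correction. The UCHL5 change in DU145 was -1.64 as deposited and -0.17 (limma adjusted p = 0.208) with the GC trend divided out. BAP1, a nuclear hydrolase of the family, was higher in PC3 by 1.20, and by 0.59 with the GC trend divided out. ALCAM, an adhesion molecule related to NCAM1, had 34.5, 1.31 and 7.18 FPKM, with changes of -2.26 in PC3 and -3.99 in DU145, which were -0.71 (limma adjusted p = 0.0309) and -2.74 after the correction for GC content. Dividing out the GC trend gave 2 genes of this list called lower in DU145 and 2 called higher. Of all 17058 genes tested with that correction, 6315 were lower and 4259 higher. Upper-quartile scaling gave 1 higher and 4 lower in the list, where 6152 and 4587 of all 17072 tested genes were.

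**Figure D5:**
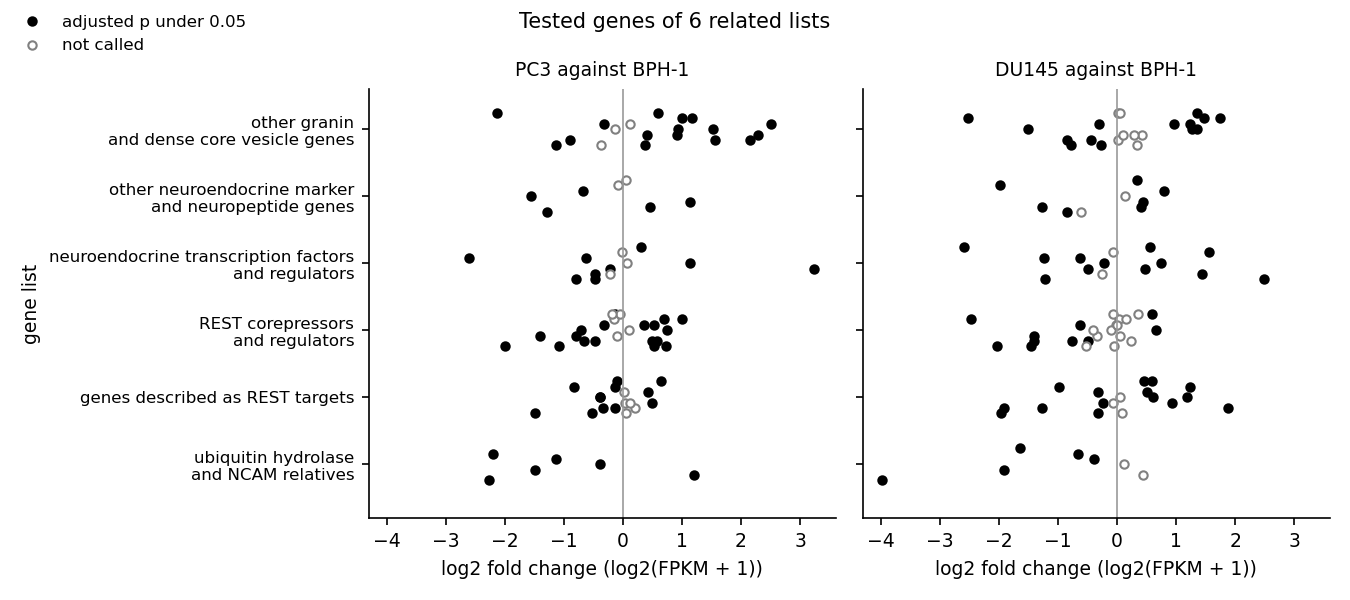
Log2 fold change on log2(FPKM + 1) of the tested genes of 6 related lists in PC3 (left) and DU145 (right) against BPH-1, with filled points for a limma adjusted p under 0.05 and open points for genes not called. The vesicle list has 12 filled points right of 0 in PC3 and 7 on each side in DU145, and the other lists have points on both sides, except that the DU145 relatives of UCHL1 and NCAM1 have called points on the left alone.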

How the data were processed

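The authors deposited 1 table of normalized values for 58302 genes with GRCh38 coordinates. Its header names no unit. Steps between low numbers show that the deposited unit is FPKM, so whole reads were recovered from it. The submitters' processing notes list CASAVA 1.8, HISAT2 2.1.0 and edgeR without roles, and the annotation, counting and use of strand are not given in the sources used here. Gene length was taken as the sum of distinct exons in GENCODE 29, under which 96.1% to 97.0% of values under 20 reads came out whole within 0.02 reads. For 263 genes no length was found. Depth was 12950929 to 16310077 reads per library. No 2 of the 18 replicate pairs were alike within counting noise (chi-square per gene at least 17.3). All 12 columns were matched to a line and replicate by name.

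Differences were tested on log2(FPKM + 1) with limma 3.58.1 (R 4.3.3, variance moderated along mean level), using the libraries of both lines compared. Genes entered with 10 reads at median depth in 4 libraries and 15 in all, and were called at a Benjamini-Hochberg adjusted p under 0.05 over all genes tested. The recovered reads served for the filter, the limit of 3 reads and voom. For the GC correction, a curve of log2 FPKM on GC content was estimated per library and subtracted (spline with 5 degrees of freedom, genes with a mean of 50 reads). It also removes real differences that follow GC content. Both were tested on simulated data. Python 3.11.15 with numpy 2.4.6, pandas 2.3.3 and matplotlib 3.10.9 was used. Alternatives were other filters, scalings and pseudocounts, a shared fit, a replicate block, voom, leaving out libraries and exact permutation tests.

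All members are named, and from each related list at most 3 rises and 3 falls per comparison that were called without overlap. Genes with no or few reads, UCHL3, RCOR1 and the neighbouring genes are named outside that rule. Some genes of the lists and of the neighbourhoods are not reported here. The TATA box, the neighbours and the exclusion of the low-GC and the leukocyte-marker libraries were added after the data were seen. The members and lists were chosen with earlier results of these data known.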

Additional observations from a re-analysis of the deposited data

Results flagged for a closer look

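Among 21 sets of 4 libraries with values above 0, 2 held a library far from the other 3 by Dixon's criterion. Chance gives this in about 5% of sets of normally distributed values, a rate that does not hold for sets tied at 0. CHGA in DU145 was 0.0629 FPKM in replicate 3 (5 reads) and 0 in the other libraries, a pattern that meets the criterion at any value above 0. NCAM1 in BPH-1 was 0.0950 FPKM in replicate 2, from 38 reads against 27 or 28 in the others.

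For 3 members the change against BPH-1 differed between the PCa lines, tested as PC3 against DU145 with limma. The difference was -7.25 for UCHL1 (adjusted p = 2.92e-08), -0.18 for NCAM1 (adjusted p = 0.0212) and -0.17 for SYP (adjusted p = 0.017), each on the log2(FPKM + 1) scale and each lower in 4 of 4 PC3 libraries than in any DU145 library.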

How the results depend on the processing

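Of 466 values recomputed under the alternatives, 442 kept their direction and their side of the threshold (or, for counts, stayed within 1.5 times), 15 lost a call, 2 gained one, 7 counts moved further and 0 reversed. With an absolute log2 fold change over 1 as well, genes called higher and lower fell to 1543 and 2881 in PC3 against BPH-1, 1950 and 2945 in DU145 against BPH-1, and 1345 and 1820 in PC3 against DU145. The strict filter gave 2909 genes lower in PC3 than in DU145, from 12822 tested instead of 16209.

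The NCAM1 change in PC3 against BPH-1 lost its call in 1 fit over all 3 lines (-0.081, adjusted p = 0.16), with upper-quartile scaling (-0.063, 0.0781) and without the low-GC libraries (-0.076, 0.0907). Leaving out 1 library at a time gave -0.084 to -0.071 with adjusted p of 0.0368 to 0.0576, over the threshold without PC3 replicate 1, 2 or 3 in turn. UCHL1 in PC3 against BPH-1 lost its call in the fit over all 3 lines (-0.28, 0.151), and SCG2 in DU145 without the low-GC libraries (-0.14, 0.0602). NCAM1 in DU145 against BPH-1 gained a call without the low-GC libraries (0.19, 0.00744) and without DU145 replicate 3, the range over single libraries being 0.063 to 0.15. In PC3 against DU145, SYP lost its call with upper-quartile scaling (-0.17, 0.0555), without the low-GC libraries (-0.12, 0.0975) and without PC3 replicate 1 or 3, with -0.18 to -0.14 and adjusted p of 0.0181 to 0.0521 over single libraries. NCAM1 there lost it without DU145 replicates 1 and 2, the leukocyte-marker libraries (-0.17, 0.0989). The fits without several libraries have fewer samples, and for the others the cause was not tested.

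The replicate numbers shared by the lines did not pair the libraries, since the correlations of same-numbered deviations ran from -0.65 to 0.51. With the replicate number as a block, genes called were 10711, 10156 and 6654 in the 3 comparisons, against 11058, 10691 and 7820. The adjusted p was 0.0858 for NCAM1 in PC3 against BPH-1 (-0.081) and 0.0738 for SYP in PC3 against DU145 (-0.17). No other call on a member changed under the block.

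Scaling moved all genes together. The median log2 fold change in PC3 against BPH-1 was -0.13 as deposited, -0.28 with the same sum per library and 0.10 with upper-quartile scaling, and the share of calls that were higher was 40.2%, 30.3% and 55.3%. In DU145 against BPH-1 the medians were -0.03, -0.16 and 0.13, and the shares 48.4%, 38.6% and 57.3%. The share in PC3 against DU145 was between 38.3% and 47.6% under every setting run. Against BPH-1, the PC3 change of SYP ran from -2.88 to -0.59 and the UCHL1 change in DU145 from 6.22 to 8.52, the largest sizes coming from voom on the recovered reads, which adds no pseudocount of 1 FPKM. Most members had under 100 reads per library, so a level under about 3 reads was not detectable, and BPH-1 and both PCa lines differed in GC balance throughout, which cannot be told apart from the lines.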
